A study of Arabidopsis thaliana with 15 samples.

Results

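The comparison set leaves of Arabidopsis thaliana sprayed with the densest suspension of a non-pathogenic leaf bacterium against leaves sprayed with the thinnest one. The bacterium was Williamsia sp. Leaf354, and the plants were of the accession Col-0, 6 weeks old and grown in boxes on ground zeolite. The 2 groups were W8, sprayed at 100000000 CFU/ml, and W5, sprayed at 100000 CFU/ml, a 1000-fold difference in density. They were taken by group label and make up 6 of the 15 libraries of the series, 3 per group. The others were W6 and W7, sprayed at 1000000 and 10000000 CFU/ml, and a mock group sprayed with phosphate-buffered saline. The aboveground parts were collected 96 h after spraying, and each library was a pool of 2 plants from different boxes. Both groups were sprayed with bacteria, so the comparison measures the effect of density and holds no untreated plants. The title of the series asks whether such bacteria raise plant immune responses according to their density.

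Plants sense bacteria at the cell surface through pattern receptors, which act with co-receptor kinases and pass the signal to MAP kinases, an NADPH oxidase and WRKY transcription factors. This first layer is called pattern-triggered immunity. Salicylic acid and N-hydroxypipecolic acid carry a later and partly systemic layer that ends in pathogenesis-related (PR) proteins. Tryptophan feeds camalexin and the indole glucosinolates, which are antimicrobial compounds of Arabidopsis leaves. Defence is often accompanied in leaves by lower expression of photosynthesis genes.

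Library totals were 17811560 to 21870246 counts in W8 and 19107869 to 21333041 counts in W5. On the first principal component of the 6 libraries, which held 73.6% of the variance, the W8 replicates 1 to 3 lay at 39.6, 61.6 and 36.3 and the W5 replicates at -48, -45.7 and -43.8. W8 replicate 2 stood farthest out: it differed over 2-fold from replicates 1 and 3 in 640 and 769 genes, and these differed from each other in 323. The mesophyll markers LHCB1.1, RBCS1A, RCA and CAB3 were abundant, with a summed 22200 to 25000 CPM in W8 and 28900 to 32900 CPM in W5. CPM are counts scaled to a common library size after correction for library composition. The root markers EXPA7, COBL9 and TIP2;3 and the seed markers OLEO1 and CRC had at most 2 counts in total in either group. Of the other root markers, CASP1 had 12 counts over the W8 libraries and 2 over the W5 libraries, and PYK10 had 117 to 201 CPM in W8 and 159 to 176 CPM in W5.

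Of 19285 genes tested, 6750 (35.0%) differed between W8 and W5 at an adjusted p under 0.05, by edgeR's quasi-likelihood test with Benjamini-Hochberg adjustment, which gave all adjusted p values below. Higher in W8 were 3719 genes (19.3%), with a median log2 fold change of 0.56, and lower were 3031 (15.7%), with a median of -0.38. Over all tested genes the median was -0.004. Large changes went mostly upward: 510 genes (2.64%) were higher by more than 2-fold in a test against that size, and 29 (0.15%) were lower. With upper-quartile scaling 42.3% of the called genes were higher in W8, against 55.1% here. Without W8 replicate 2 the calls numbered 5492, and among the 3719 genes higher in W8 this replicate held the highest W8 value in 2472.

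**Figure D1:**
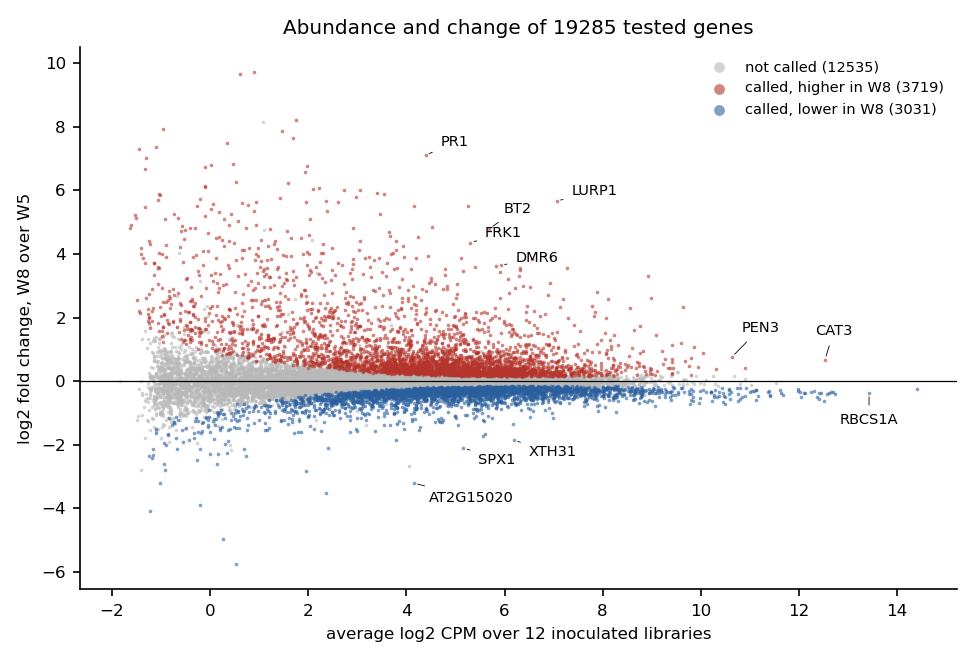
Average abundance (x axis, log2 CPM over the 12 inoculated libraries) against the log2 fold change of W8 over W5 (y axis) for each tested gene, with called genes in red (higher in W8) and blue (lower in W8). Rises reach further from 0 than falls, and the most abundant genes, such as RBCS1A at -0.36, lie slightly below 0.

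FRK1 (AT2G19190, chr2:8326049-8329944, minus strand, TAIR10.1) is a receptor kinase widely used as a reporter of pattern-triggered immunity. FRK1 had 106, 142 and 83.7 CPM in W8 against 4.18, 5.59 and 6.54 CPM in W5. All W8 libraries lay far above all W5 libraries, and the log2 fold change was 4.35 ± 0.3 (SE, n = 3 each, adjusted p = 6.35e-06). Of 11 tested pattern-triggered immunity markers, 10 were higher in W8 and none lower, with a median log2 fold change of 2.23. MLO12, a membrane protein of the powdery mildew susceptibility family, had 45.6, 70.8 and 44.9 CPM in W8 against 5.29, 5.27 and 6.6 CPM in W5 (log2 fold change 3.24 ± 0.21, adjusted p = 1.04e-06). The transcription factor WRKY33, which activates camalexin genes, had 111, 146 and 103 CPM in W8 against 38.5, 28.5 and 40.1 CPM in W5 (log2 fold change 1.75 ± 0.22, adjusted p = 0.000306). In both genes replicate 2 was the highest W8 library and the groups did not overlap. WRKY29 was the marker that did not pass, with 0.33 on the log2 scale (adjusted p = 0.3). PROPEP2, the precursor of a danger peptide, was too low to test, with 37 counts over the W8 libraries and 0 over the W5 libraries, which makes it at least 12.4-fold higher against a floor of 3 counts over the group.

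Receptor genes had a smaller median. Of 12 pattern receptors and co-receptors 9 were higher and none lower, with a median of 0.49. RLP23, the receptor of a peptide shared by many microbial proteins, had 30.9, 67.6 and 38.7 CPM in W8 against 2.82, 4.57 and 1.7 CPM in W5 (log2 fold change 3.89 ± 0.71, adjusted p = 0.0029). Replicate 2 was again the highest. The flagellin receptor FLS2 had 68.1, 77.4 and 73.6 CPM in W8 against 86.3, 79.9 and 76.3 CPM in W5, a log2 fold change of -0.15 that did not pass (adjusted p = 0.225). The co-receptor BAK1 had 78.2, 93.4 and 82.3 CPM in W8 against 57.5, 62.2 and 60.4 CPM in W5 (log2 fold change 0.5 ± 0.07, adjusted p = 2.17e-05). The chitin co-receptor CERK1 (0.77), the chitin receptor LYK5 (1.72) and the BAK1-interacting kinase BIR1 (1.45) were higher too. Of the immune MAP kinases and NADPH oxidases 7 of 10 were higher, with a median of 0.35. They included RBOHD, the main immune NADPH oxidase, at a log2 fold change of 0.44, and MPK11 at 3.44.

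The WRKY factors of this pathway bind the W-box in promoters. In the 250 bases before the annotated start of each gene, TTGACC or TTGACT on either strand was present in 51.2% of the genes higher by more than 2-fold, 37.2% of those called higher and 23.8% of those called lower. It was present in 28.1% of all 19160 tested genes with a promoter sequence. The motif was found before 10 of the 11 pattern-triggered immunity markers and before 16 of the 21 cysteine-rich receptor kinases. TGACG, the core of TGA factor sites, was in 27.6% of promoters of genes higher by more than 2-fold and in 19.3% of all promoters, and for the G-box CACGTG the shares were 4.9% of those higher and 7.32% of all. The share of the evening element AAAATATCT was 4.9% of those higher by more than 2-fold and 2.54% of all, and that of the I-box GATAAG was 16.7% of those higher and 12.5% of all. For the telo-box AAACCCTA these shares were 1.96% of those higher and 3.64% of all, and for the GCC box AGCCGCC 0.784% of those higher and 0.595% of all. Of the 15 largest rises 6 had a W-box. The shares are a description of these windows and no test was made. The promoters below, chosen after their matches were seen, belong to risers of several groups: the marker genes FRK1, WRKY33 and MLO12, the indole glucosinolate enzyme CYP81F2, the receptor kinase CRK5 and the triterpene cyclase LUP5. They are read from RefSeq's TAIR10.1 5′ to 3′ on the gene's strand, with the W-box on either strand in capitals.
FRK1: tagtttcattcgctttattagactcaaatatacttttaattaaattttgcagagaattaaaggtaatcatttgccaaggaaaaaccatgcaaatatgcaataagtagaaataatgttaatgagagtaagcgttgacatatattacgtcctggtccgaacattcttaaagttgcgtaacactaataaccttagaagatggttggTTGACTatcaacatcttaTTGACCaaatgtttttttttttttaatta
WRKY33: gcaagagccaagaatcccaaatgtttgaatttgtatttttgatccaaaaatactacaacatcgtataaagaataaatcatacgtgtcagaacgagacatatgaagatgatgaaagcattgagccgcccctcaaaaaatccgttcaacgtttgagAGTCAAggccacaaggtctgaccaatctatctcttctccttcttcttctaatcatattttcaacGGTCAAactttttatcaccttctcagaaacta
MLO12: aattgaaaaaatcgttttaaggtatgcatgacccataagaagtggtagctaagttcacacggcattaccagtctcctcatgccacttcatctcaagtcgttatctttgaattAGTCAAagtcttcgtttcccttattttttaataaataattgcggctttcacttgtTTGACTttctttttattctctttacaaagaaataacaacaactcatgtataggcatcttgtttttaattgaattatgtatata
CYP81F2: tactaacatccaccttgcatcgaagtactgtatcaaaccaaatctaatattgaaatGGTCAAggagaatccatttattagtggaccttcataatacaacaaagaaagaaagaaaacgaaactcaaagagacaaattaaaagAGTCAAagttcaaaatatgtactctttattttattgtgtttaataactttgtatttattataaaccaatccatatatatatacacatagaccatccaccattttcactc
CRK5: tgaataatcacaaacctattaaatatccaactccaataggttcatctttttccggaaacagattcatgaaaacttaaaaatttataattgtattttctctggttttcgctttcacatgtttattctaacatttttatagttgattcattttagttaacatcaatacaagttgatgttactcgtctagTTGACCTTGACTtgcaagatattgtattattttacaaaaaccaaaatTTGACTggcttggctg
LUP5: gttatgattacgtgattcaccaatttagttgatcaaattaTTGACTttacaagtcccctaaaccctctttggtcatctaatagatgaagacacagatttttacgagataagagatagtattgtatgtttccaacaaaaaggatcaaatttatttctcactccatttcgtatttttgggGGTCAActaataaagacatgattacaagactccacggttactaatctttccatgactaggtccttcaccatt
Their positions were chr2:8329945-8330194 (minus strand) for FRK1, chr2:16107985-16108234 (plus strand) for WRKY33, chr2:16359944-16360193 (minus strand) for MLO12, chr5:23187590-23187839 (plus strand) for CYP81F2, chr4:12120221-12120470 (minus strand) for CRK5, chr1:24992044-24992293 (minus strand) for LUP5.

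**Figure D2:**
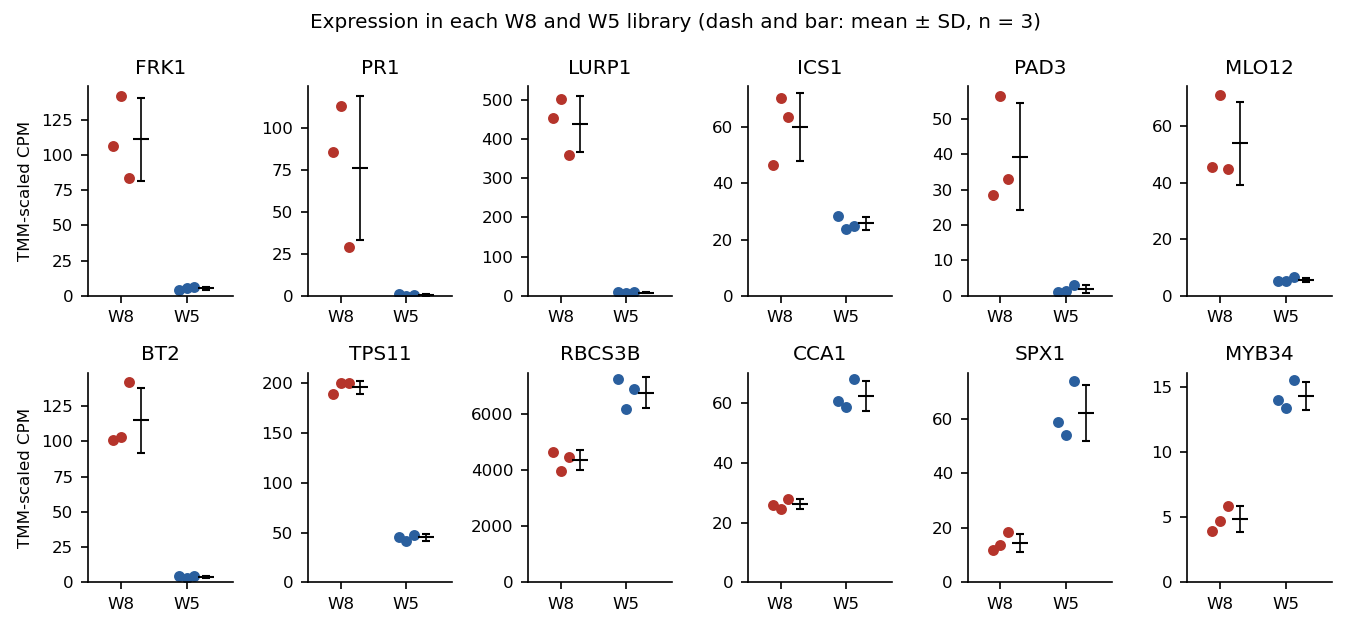
CPM of 12 genes (y axis, from 0, a scale per gene) in each W8 library (red) and W5 library (blue), with the mean ± SD of 3 libraries at the side. In all 12 genes the groups do not overlap, with W8 higher in FRK1 to TPS11 and lower in RBCS3B to MYB34.

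Most listed genes of salicylic acid synthesis, response and breakdown were higher in W8, but not all. Of 12 synthesis genes and regulators 10 were higher and 1 lower, with a median of 0.89. ICS1, the enzyme of the main route to salicylic acid, had 46.7, 70.2 and 63.5 CPM in W8 against 28.4, 23.9 and 25 CPM in W5 (log2 fold change 1.22 ± 0.24, adjusted p = 0.00342). PBS3, which conjugates its product, had a larger log2 fold change of 3.87 ± 0.77 (adjusted p = 0.00471), and the regulators SARD1 and CBP60G had 3.86 and 2.06. EPS1, which acts after PBS3, was lower, with 2.64, 1.94 and 2.37 CPM in W8 against 4.44, 4.57 and 4.47 CPM in W5 (log2 fold change -0.95 ± 0.18, adjusted p = 0.000357). EDS5, of the same list, did not pass, at a log2 fold change of 0.95. The immune regulators EDS1 and PAD4 each had a log2 fold change of 0.89.

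Of 14 tested perception and response genes 11 were higher and none lower, with a median of 1.32. The 3 salicylic acid receptors rose: NPR1 by 0.69, NPR3 by 1.47 and NPR4 by 1.18 on the log2 scale, with adjusted p values of 1.19e-06, 8.77e-08 and 1.89e-07. The factors that bind them, TGA2 (0.03), TGA5 (0.25) and TGA6 (0.21), did not pass, and TGA3 did (0.45). TGA5 passed without W8 replicate 3 (0.34, adjusted p = 0.0266). WRKY70 had 141, 172 and 118 CPM in W8 against 15.8, 12.9 and 11.3 CPM in W5 (log2 fold change 3.43 ± 0.49, adjusted p = 0.000735). Of the 5 tested breakdown and conjugation genes 4 were higher, with a median of 3.64. DMR6, which hydroxylates salicylic acid, had 155, 214 and 139 CPM in W8 against 16, 12.8 and 11.8 CPM in W5 (log2 fold change 3.64 ± 0.49, adjusted p = 0.000542). DLO1, a related hydroxylase, and UGT76B1, a glycosyltransferase, had 828 and 478 counts over the W8 libraries against 7 and 2 over the W5 libraries. For UGT76B1 the ratio was 240, with a 95% counting interval of 66.1 to 1990, and for DLO1 it was 119, with 57.4 to 297. W5 replicate 1 held 5 of the 7 DLO1 counts, and its log2 fold change of 6.77 became 7.88 without it. Such intervals are exact binomial and cover counting error only.

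All 7 tested genes of N-hydroxypipecolic acid and systemic resistance were higher, with a median of 3.63. FMO1, which makes N-hydroxypipecolic acid, had 8.37, 18.9 and 11.1 CPM in W8 against 0.202, 0.139 and 0.213 CPM in W5 (log2 fold change 6.08 ± 1.5, adjusted p = 0.0133). Without W5 replicate 2 its adjusted p was 0.0506. ALD1, the first enzyme of that pathway, had 156 counts over the W8 libraries and 1 over the W5 libraries, a ratio of 157 with a counting interval of 27.7 to 6230. Its fitted log2 fold change was 6.81, and 8.67 without W5 replicate 1. AZI1, a lipid-transfer-like protein of systemic priming, had 431, 505 and 375 CPM in W8 against 92.9, 120 and 103 CPM in W5 (log2 fold change 2.05 ± 0.11, adjusted p = 1.9e-08). The libraries of the groups were far apart. Reads of AZI1 and its close relatives EARLI1 and AT4G12490 may be shared, and their values are uncertain to that extent.

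Of 13 PR and late defence genes 12 were higher and none lower, with a median of 3.57. PR1 (AT2G14610, chr2:6241640-6242541, minus strand) is the standard marker of salicylic acid signalling. PR1 had 85.8, 113 and 29 CPM in W8 against 0.907, 0.139 and 0.638 CPM in W5 (log2 fold change 7.1 ± 1.2, adjusted p = 0.00165). The W8 libraries spread widely and still lay above every W5 library. PR2, a glucanase, had 221, 311 and 177 CPM in W8 against 25.9, 16.1 and 18 CPM in W5 (log2 fold change 3.57 ± 0.65, adjusted p = 0.00293). PR5, a thaumatin-like protein, had 117, 192 and 88 CPM in W8 against 45.2, 23.7 and 31.1 CPM in W5 (log2 fold change 1.99 ± 0.42, adjusted p = 0.00624). LURP1, needed for defence against an oomycete, had 453, 501 and 360 CPM in W8 against 9.12, 7.85 and 8.99 CPM in W5 (log2 fold change 5.66 ± 0.82, adjusted p = 0.000822). In PR1, PR2, PR5 and LURP1 replicate 2 was the highest W8 library. PR3, a chitinase with 66.93% of its exon bases its own, did not pass (0.51, adjusted p = 0.245), and passed without W8 replicate 2 (0.81, adjusted p = 0.00716).

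Cysteine-rich receptor kinases sit in the plasma membrane. Of the 21 on the list, which does not cover the family, 20 were higher and none lower, with a median of 2.33, and in all 20 replicate 2 was the highest W8 library. CRK5 had 38.4, 41.7 and 35.3 CPM in W8 against 9.02, 8.69 and 8.94 CPM in W5 (log2 fold change 2.11 ± 0.13, adjusted p = 9.42e-09). CRK39 had 49 counts over the W8 libraries and 0 over the W5 libraries, at least 16.4-fold higher against the floor. These genes lie in clusters of close copies, so single values may share reads. Of 5 tested wall-associated kinases, which sense pectin, 4 were higher, with WAK1 at 265, 366 and 242 CPM in W8 against 32, 36.2 and 35.1 CPM in W5 (log2 fold change 3.08 ± 0.56, adjusted p = 0.00294). The 8 tested intracellular NLR receptors of the list, which does not cover the family, changed less. Of these 6 were higher, with a median of 0.36 and a highest value of 1.14 in ZAR1. Outside this list AT4G11170, annotated as an NLR-type resistance protein, had 6.59, and 4.68 without W8 replicate 2. RPS2 was listed at 1 count in W8 and 0 in W5, and none of its exon bases are its own in the annotation.

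Of 14 camalexin and tryptophan genes 12 were higher and none lower, with a median of 1.04. PAD3, the last enzyme of camalexin, had 28.4, 56.4 and 33.1 CPM in W8 against 1.06, 1.43 and 3.09 CPM in W5 (log2 fold change 4.42 ± 0.82, adjusted p = 0.00318). CYP71A13, an earlier step, had 7.97, 13.3 and 5.73 CPM in W8 against 0.252, 0.323 and 0.426 CPM in W5 (log2 fold change 4.74 ± 0.91, adjusted p = 0.00333), and 77.91% of its exon bases are its own. ASA1, the entry to tryptophan, had 164, 181 and 149 CPM in W8 against 82, 70.4 and 97.3 CPM in W5 (log2 fold change 0.98 ± 0.097, adjusted p = 1.33e-06).

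The 2 classes of glucosinolates differed in direction. Of 13 tested indole glucosinolate genes 7 were higher and 1 lower, with a median of 0.75, while of 18 tested aliphatic genes 0 were higher and 13 lower, with a median of -0.5. CYP81F2, which modifies indole glucosinolates for defence, had 89.8, 86.4 and 76.5 CPM in W8 against 19.9, 15.2 and 21.5 CPM in W5 (log2 fold change 2.16 ± 0.12, adjusted p = 1.88e-08). The indole regulators split. MYB51 had 63.5, 77.6 and 65.4 CPM in W8 against 20, 16.7 and 22.4 CPM in W5 (log2 fold change 1.81 ± 0.16, adjusted p = 5.11e-06), and MYB34 had 3.91, 4.72 and 5.89 CPM in W8 against 14, 13.4 and 15.5 CPM in W5 (log2 fold change -1.57 ± 0.13, adjusted p = 5.32e-08). MYB122, the third of them, was too low to test, with 45 counts over the W8 libraries and 0 over the W5 libraries, at least 15.1-fold higher. MYB28, the main aliphatic regulator, had 45.5, 37.7 and 53.9 CPM in W8 against 74.7, 73.1 and 68.8 CPM in W5 (log2 fold change -0.66 ± 0.093, adjusted p = 3.39e-05).

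Of 16 tested jasmonic acid genes 2 (12.5%) were higher and 1 (6.25%) lower, with a median of 0.22. Over all tested genes these shares were 19.3% and 15.7%. The 2 higher genes were JAZ7, a repressor of jasmonate signalling, and TAT3, a tyrosine aminotransferase, and neither passed without W8 replicate 1 (adjusted p = 0.0548 for JAZ7 and 0.0634 for TAT3), W5 replicate 1 (0.0697 and 0.0876) or W5 replicate 2 (0.0833 and 0.0939). TAT3 also failed without W8 replicate 2 (0.065) or W5 replicate 3 (0.076), and the lower gene JAZ6 failed without W5 replicate 3 (0.0681). VSP2, a jasmonate marker, had 13.6, 8.88 and 16.4 CPM in W8 against 16.3, 14.5 and 24.6 CPM in W5, and did not pass (log2 fold change -0.51, adjusted p = 0.689). PDF1.2, a defensin that answers jasmonate with ethylene, had 17.7, 14.9 and 6.61 CPM in W8 against 2.67, 2.22 and 13.5 CPM in W5. Its groups overlapped through W5 replicate 3, and it did not pass (1.12, adjusted p = 0.25). Without that replicate PDF1.2 passed (2.43, adjusted p = 0.00935). MYC2 was listed at 0 in both groups, and 1.46% of its exon bases are its own. Of 10 ethylene and ethylene-linked genes 5 were higher, among them the ethylene response factor ERF104, with 52.2, 55.1 and 48.7 CPM in W8 against 15.7, 14.8 and 17.9 CPM in W5 (log2 fold change 1.69 ± 0.089, adjusted p = 1.63e-10). In a fit over all 15 libraries 2 of the 10 passed.

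**Figure D3:**
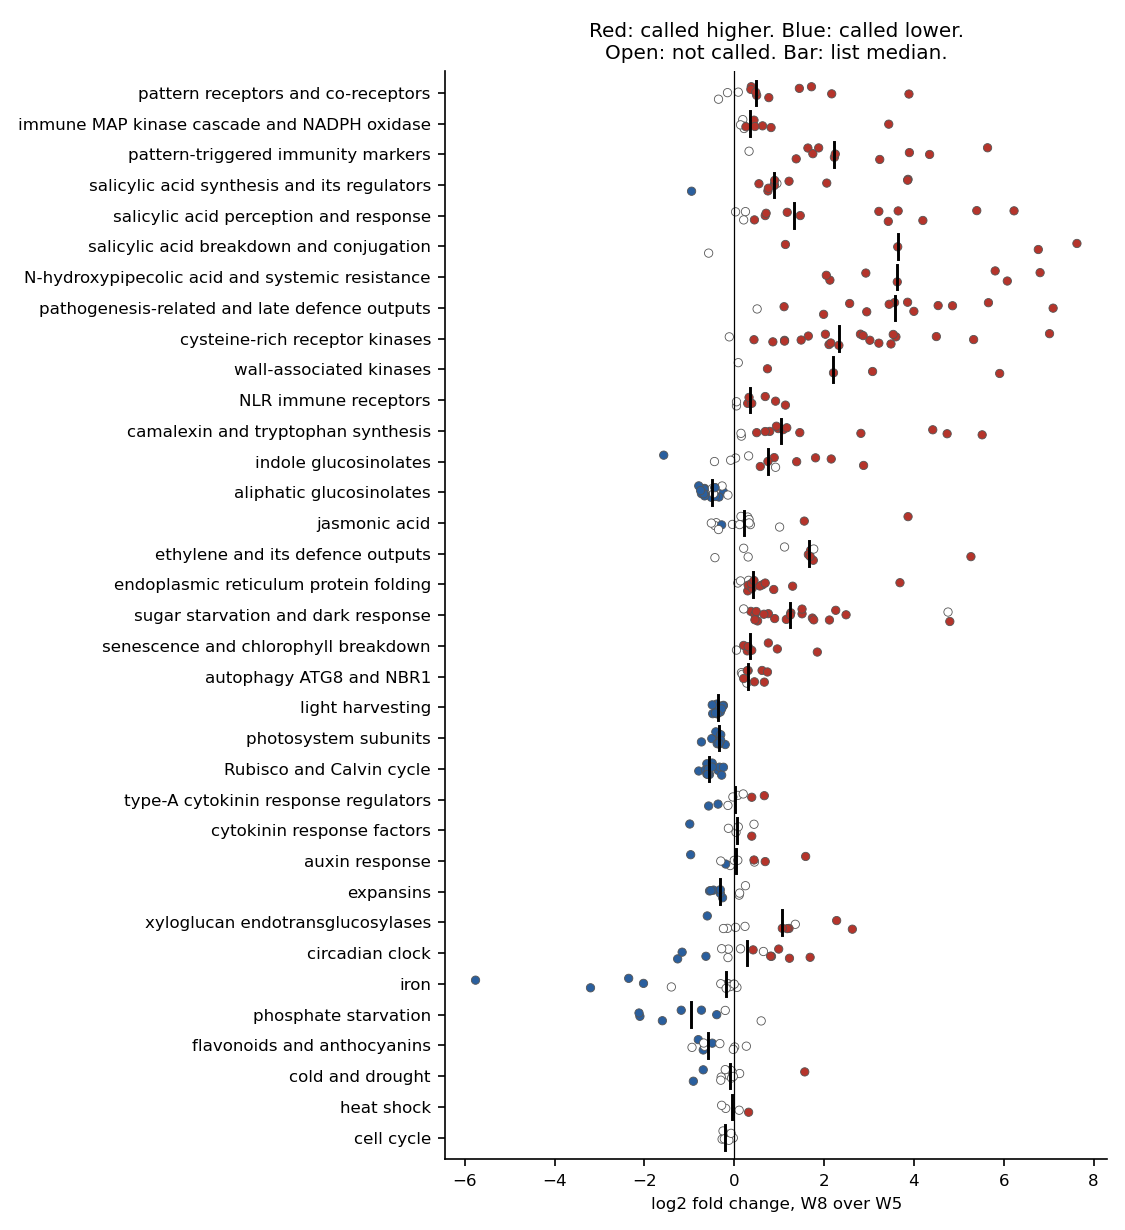
Log2 fold change of W8 over W5 (x axis) of each tested member of the 35 gene lists (rows), with called members filled and the list median as a bar. The salicylic acid, N-hydroxypipecolic acid, PR and receptor kinase lists lie to the right, and photosynthesis, aliphatic glucosinolate and phosphate lists to the left.

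Genes of the endoplasmic reticulum, where receptors and secreted PR proteins fold, were higher in 12 of 15 cases, with a median of 0.41. The chaperone BIP3 had 17.7, 23.3 and 16.5 CPM in W8 against 1.46, 1.85 and 1.12 CPM in W5 (log2 fold change 3.69 ± 0.35, adjusted p = 1.31e-05). CRT3, a calreticulin that folds the receptor EFR, had a log2 fold change of 1.3 ± 0.16 (adjusted p = 0.000155).

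Of 21 sugar starvation and dark response genes, which release carbon from stores and amino acids, 19 were higher and none lower, with a median of 1.25. BT2 (AT3G48360, chr3:17907767-17910738, minus strand) is a BTB-TAZ scaffold protein that responds to sugar and nitrogen. BT2 had 101, 103 and 142 CPM in W8 against 4.79, 3.42 and 4.26 CPM in W5 (log2 fold change 4.8 ± 0.15, adjusted p = 1.71e-10). Replicate 3 was its highest W8 library, and the groups were far apart. TPS11, a trehalose phosphate synthase-like protein, had 189, 200 and 200 CPM in W8 against 45.8, 41.7 and 48 CPM in W5 (log2 fold change 2.12 ± 0.093, adjusted p = 6.93e-11). DIN10, a dark-inducible raffinose synthase-like gene, had 690, 661 and 673 CPM in W8 against 185, 219 and 201 CPM in W5 (log2 fold change 1.74 ± 0.11, adjusted p = 7.31e-08). Replicate 2 was the highest W8 library in 2 of the 19, against 20 of 20 for the cysteine-rich receptor kinases. Of 8 senescence and chlorophyll breakdown genes 7 were higher (median 0.35) and of 10 autophagy genes 7 (median 0.3). The autophagy gene ATG8I failed without any 1 of the 6 libraries (adjusted p = 0.0544 to 0.18), and ATG8B without any but W8 replicate 1 (0.0621 to 0.087). Of the chlorophyll breakdown genes PPH failed without W8 replicate 2 (0.165), W5 replicate 1 (0.174) or 3 (0.0721). NYE1 failed without W8 replicate 1 (0.087) or W5 replicate 3 (0.0603). The senescence regulator ORE1 had 69.9, 78.8 and 68.4 CPM in W8 against 40.5, 34.8 and 36.6 CPM in W5 (log2 fold change 0.96 ± 0.13, adjusted p = 0.000175).

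Photosynthesis genes fell together, each by less than 2-fold. All 15 tested light-harvesting genes, all 13 photosystem genes and all 14 Rubisco and Calvin cycle genes were lower, with medians of -0.36, -0.35 and -0.57. In bulk leaves, fewer cells of a type and less RNA per cell cannot be told apart. The 4 mesophyll markers, all of them photosynthesis genes, were lower too. The 3 guard cell markers had a summed 48.9 to 57.8 CPM in W8 and 58.1 to 64.8 CPM in W5, and of them KAT1 and MYB60 passed as lower. Neither passed without W8 replicate 2 (adjusted p = 0.106 for KAT1 and 0.0639 for MYB60), KAT1 failed without W8 replicate 1 (0.0525) or W5 replicate 3 (0.109), and MYB60 failed without W5 replicate 2 (0.108). The phloem marker SUC2 had 145 to 171 CPM in W8 and 144 to 160 CPM in W5 and did not pass (log2 fold change 0.02, adjusted p = 0.887). Of 6 flower markers none of the 3 tested passed, AP1 was at 0 in both groups and AP3 had 6 counts in each. SEP1, with 64.23% of its exon bases its own, had 1 count over the W8 libraries against 9, 12 and 9 in the W5 libraries, a W5 over W8 ratio of 29.9 with a counting interval of 4.96 to 1220. Chloroplast-encoded transcripts made up 0.197, 0.18 and 0.185% of the counts in W8 against 0.231, 0.205 and 0.217% in W5. Of 92 tested chloroplast genes 0 were higher and 9 lower (median -0.32), against 19.3% higher and 15.7% lower over all tested genes. The 9 calls are thus not a larger share than among all genes, and the RNA was selected for poly-A tails. The part of the cell types in the result was not tested. RBCS3B, a small subunit of Rubisco, had 4640, 3970 and 4490 CPM in W8 against 7250, 6180 and 6910 CPM in W5 (log2 fold change -0.64 ± 0.09, adjusted p = 2.43e-05). RCA, which activates Rubisco, had 4390, 3720 and 4320 CPM in W8 against 6260, 5520 and 6470 CPM in W5 (log2 fold change -0.55 ± 0.087, adjusted p = 6.6e-05). PSBS, the photoprotection protein of photosystem II, had 652, 593 and 643 CPM in W8 against 1080, 1010 and 1040 CPM in W5 (log2 fold change -0.73 ± 0.075, adjusted p = 6.51e-07). None of them passed the test for a change over 2-fold. LHCB1.3 had the largest drop in CPM, with 20000, 17700 and 19900 CPM in W8 against 23800, 21300 and 23200 CPM in W5 (log2 fold change -0.24 ± 0.076, adjusted p = 0.0176). It did not pass without W8 replicate 2 (adjusted p = 0.0872), W5 replicate 1 (0.0641) or W5 replicate 3 (0.0646), and reads of the near-identical LHCB1 genes may be shared.

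Among 14 clock genes 6 (42.9%) were higher and 3 (21.4%) lower, against 19.3% and 15.7% over all tested genes. The morning genes CCA1, with 26, 24.7 and 28 CPM in W8 against 60.8, 58.9 and 68.2 CPM in W5 (log2 fold change -1.26 ± 0.093, adjusted p = 1.86e-08), and PRR9 (-1.16 ± 0.071, adjusted p = 1.29e-09) were lower, with no overlap. The evening genes LUX (0.99 ± 0.1, adjusted p = 9.12e-07) and TOC1 (0.81 ± 0.094, adjusted p = 3.16e-06) were higher. These are the members with the smallest p. PRR7 (-0.13), RVE8 (-0.28), RVE4 (-0.14), GI (0.14) and RVE1 (0.65) did not pass. RVE1 passed without W8 replicate 2 (adjusted p = 0.0353) or W5 replicate 1 (0.0435), and RVE8 without W5 replicate 2 (0.0209). LHY, the partner of CCA1, had a log2 fold change of -0.63 (adjusted p = 0.0227) and did not pass without W8 replicate 1 (adjusted p = 0.104), W8 replicate 3 (0.0919) or W5 replicate 2 (0.0951). The hour of sampling is not given in the sources used here.

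Of 8 tested phosphate starvation genes 6 were lower and none higher, with a median of -0.96. Among the lower ones SRG3 failed without W8 replicate 1 (adjusted p = 0.0559) or 2 (0.0614), and PHT1;4 without W5 replicate 3 (0.0727). SPX1, a phosphate sensor protein, had 12, 13.6 and 18.4 CPM in W8 against 58.8, 54.2 and 73.9 CPM in W5 (log2 fold change -2.1 ± 0.25, adjusted p = 0.000224). MGD3, a galactolipid synthase of phosphate-starved plants, had 2.96, 3.12 and 5.34 CPM in W8 against 7.91, 9.38 and 17.1 CPM in W5 (log2 fold change -1.6 ± 0.36, adjusted p = 0.00616). Of 13 tested iron genes 4 were lower, and BHLH100, a regulator of iron uptake, had 2 counts over the W8 libraries against 124 over the W5 libraries. The W5 over W8 ratio of BHLH100 was 61.7, with a counting interval of 16.7 to 515. Both W8 counts came from replicate 2, and the log2 fold change of -5.76 became -8.4 without it (adjusted p = 0.0496) and -5.12 without W5 replicate 3. In a fit of the 6 libraries alone 2 of the 13 iron genes passed. BHLH38 passed (adjusted p = 0.0328) but not without W8 replicate 1 (0.0648), W8 replicate 2 (0.059), W8 replicate 3 (0.0985), W5 replicate 1 (0.0843) or W5 replicate 2 (0.0734), and 64.33% of its exon bases are its own.

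In the growth and hormone lists some members were called. Over all tested genes 19.3% were higher and 15.7% lower, so a few calls in a short list do not show that it moved. Whether these lists differ from those shares was not tested. The median log2 fold changes of the type-A cytokinin regulators, cytokinin response factors and auxin response genes were 0.03, 0.07 and 0.04. Of 9 expansins, which loosen walls, 6 were lower, but 3 were left without W8 replicate 1 or 2 or W5 replicate 1. EXPA4 had 23.3, 19.1 and 25.9 CPM in W8 against 32.1, 33.7 and 33.8 CPM in W5 (log2 fold change -0.55 ± 0.1, adjusted p = 0.000349). Xyloglucan endotransglucosylases remodel walls, and the list does not cover the family. Of its 11 tested members 5 were higher and 1 lower, and in a fit of all 15 libraries 3 passed. Outside the list, XTH31 was lower (log2 fold change -1.86). XTH24 had 262, 222 and 251 CPM in W8 against 85.1, 117 and 123 CPM in W5 (log2 fold change 1.18 ± 0.16, adjusted p = 0.000349). Of 8 tested type-A cytokinin regulators 2 were higher and 2 lower, with ARR5 at 15.5, 16.1 and 16.1 CPM in W8 against 10.6, 9.84 and 9.63 CPM in W5 (log2 fold change 0.67 ± 0.11, adjusted p = 0.000121). The other higher one, ARR7 (adjusted p = 0.0316), passed only when no library or W8 replicate 1 was left out, with 0.0551 to 0.183 otherwise, and the lower ARR15 failed without W8 replicate 1 (0.105), W8 replicate 3 (0.0733) or W5 replicate 2 (0.207). None of 7 cell cycle genes passed with edgeR, DESeq2 or limma, and 0 had an unadjusted p under 0.05. Without W8 replicate 3, 2 of them passed. Flavonoid genes had 3 of 10 lower, cold and drought genes 1 of 12 higher and 2 lower, and heat shock genes 1 of 4 higher. The lower flavonoid gene TT4 failed without any 1 of the 6 libraries (adjusted p = 0.0721 to 0.15), while TT5 and TT7 passed in each such fit. The lower cold genes CBF3 and COR15A both failed without W5 replicate 2 (adjusted p = 0.071 and 0.0648), and COR15A without W8 replicate 2 (0.0837) or W5 replicate 1 (0.0544). The higher drought gene RD29B failed without W8 replicate 2 (0.077), W5 replicate 1 (0.0625) or W5 replicate 3 (0.0915), and the heat shock gene HSP90.1 without W8 replicate 2 (0.118), W5 replicate 1 (0.218) or W5 replicate 2 (0.0661). Of 10 auxin response genes 3 were higher and 2 lower, and of 6 cytokinin response factors 1 was higher and 1 lower. None of these 6 passed without W8 replicate 2 (adjusted p = 0.138 for CRF6 and 0.0698 for CRF1), W5 replicate 1 (0.141 and 0.0573) or W5 replicate 2 (0.132 and 0.0633). Among the auxin genes IAA2 (adjusted p = 0.0381) failed without any 1 of the 6 libraries, at 0.0552 to 0.137.

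The genes with the largest log2 fold changes upward, among those with an average of at least 1 log2 CPM and no overlap, were AT1G13520, AT3G28510, UGT76B1, PR1, DLO1, AT4G11170, WRKY38, FMO1, LUP5, AOX1D, AT1G26410, WAK3, AT2G45220, AT4G12490 and ELI3-2. They ran from 8.21 to 5.77, and several had few counts in W5, so the fitted sizes depend on the prior count. AT1G13520, a protein of unknown function, had 730 counts over the W8 libraries and 2 over the W5 libraries, a ratio of 367 with a counting interval of 101 to 3030, and without W8 replicate 2 its log2 fold change was 6.09. AT4G11170, annotated as an NLR-type resistance protein, had 6.59, against 4.68 without the same replicate and 7.42 without W5 replicate 3. WRKY38, a WRKY factor, had 6.23, and 10.52 without W5 replicate 2. AOX1D, an alternative oxidase of mitochondria, had 6.02 and 4.04 without W8 replicate 2, and did not pass without W5 replicate 1 (adjusted p = 0.0529) or 2 (0.0539). ELI3-2 passed (adjusted p = 0.0385) and did not without W8 replicate 1 (0.0506), W8 replicate 2 (0.126), W5 replicate 1 (0.115), 2 (0.0838) or 3 (0.111). AT1G26410, a berberine-family oxidase, had 17.3, 32.4 and 15.3 CPM in W8 against 0.353, 0.231 and 0.426 CPM in W5, with a log2 fold change of 6 ± 0.38 (adjusted p = 1.16e-07).

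Downward, the largest changes were smaller, from -3.5 to -1.56. The 15 genes were AT1G13609, AT2G15020, AT5G20790, BBX29, SPX1, XTH31, AT2G44940, AT5G55620, G3Pp1, AT4G13800, AT3G28270, AT4G24700, MGD3, MYB34 and AT1G76240. AT2G15020 (chr2:6491425-6493512, minus strand) is a protein of unknown function. AT2G15020 had 4.01, 3.07 and 3.75 CPM in W8 against 37.8, 28.5 and 33.6 CPM in W5 (log2 fold change -3.2 ± 0.14, adjusted p = 2.16e-11). Its groups were far apart. BBX29, a B-box factor of light signalling, had 1.96, 1.84 and 2.48 CPM in W8 against 9.17, 8.18 and 9.47 CPM in W5 (log2 fold change -2.1 ± 0.16, adjusted p = 2.14e-08). XTH31 had 31.1, 27.4 and 31.9 CPM in W8 against 125, 99.3 and 103 CPM in W5 (log2 fold change -1.86 ± 0.15, adjusted p = 2.67e-06). AT1G13609, a defensin-like gene, did not pass without W8 replicate 1 (adjusted p = 0.0737), W8 replicate 2 (0.0745) or W5 replicate 3 (0.065). Several named genes share exon bases with a neighbour, and with the strand of counting not given their values are uncertain: AT4G12490, AT4G13800, AT4G24700, NPR1, ZAR1, ASA1, LUX, WRKY29, SARD1 and TGA6 have under 95% of their exon bases to themselves. In CPM the largest rises were in CAT3, a catalase, with 7220, 8430 and 7850 CPM in W8 against 4870, 4940 and 5000 CPM in W5 (log2 fold change 0.67 ± 0.069, adjusted p = 6.82e-07), and in ECS1, AT2G25510, AT5G42530 and PEN3.

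The W6 and W7 libraries show where between the 2 ends a gene changed. A contrast of the upper step (W8 minus W7) with the lower step (W6 minus W5) was called in 553 genes (2.87%), and 499 of them were also called between W8 and W5. Among genes higher in W8 the upper step was the larger in 333 and the lower step in 54, and among genes lower in W8 the upper fall was the larger in 111 and the lower in 1. Without W8 replicate 2 these counts were 167, 38, 56 and 0, and without W5 replicate 1, 2 or 3 the 333 became 168, 206 and 177. YSL3, a metal-nicotianamine transporter, had means of 26.5, 28.6, 42.4 and 94 CPM in W5, W6, W7 and W8, and BME3, a GATA factor, had 34.6, 33.3, 34 and 72.2 CPM. The contrasts were 1.04 (adjusted p = 2.99e-05) and 1.14 (adjusted p = 1.78e-05), and most of the rise of both lay above W7. Of the immune lists, 6 of 21 cysteine-rich receptor kinases had a larger upper step, CRK18 at 0.72 (adjusted p = 0.000389). So had 3 of 10 MAP kinase and NADPH oxidase genes, 3 of 12 salicylic acid synthesis genes and 2 of 8 NLR receptors. For camalexin and tryptophan genes it was 3 of 14, and for indole glucosinolate genes 3 of 13. It was 1 of 12 for pattern receptors, 1 of 14 for salicylic acid perception and 1 of 5 for wall-associated kinases. The N-hydroxypipecolic acid, PR and pattern-triggered immunity marker lists had 0. No gene of these lists had a larger lower step.

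Of the 21 sugar starvation genes 4 had a larger lower step and none a larger upper step, and the other 17 were not called off the midpoint. The median contrast of the list was -0.17. BT2 had means of 4.15, 21.8, 64.8 and 115 CPM in W5, W6, W7 and W8 (contrast -1.56, adjusted p = 0.00263), and KMD1, an F-box gene that targets cytokinin regulators, had 128, 236, 293 and 285 CPM (contrast -0.92, adjusted p = 0.000542). The median log2 step of this list was 0.54 from W5 to W6, 0.37 from W6 to W7 and 0.27 from W7 to W8. For the PR genes the same steps were 0.53, 1.07 and 2.02, and for pattern-triggered immunity markers 0.41, 0.49 and 0.91. Off the midpoint, however, 0 of the 13 PR and late defence genes and 0 of the 11 markers were called. The difference between these lists was not tested.

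**Figure D4:**
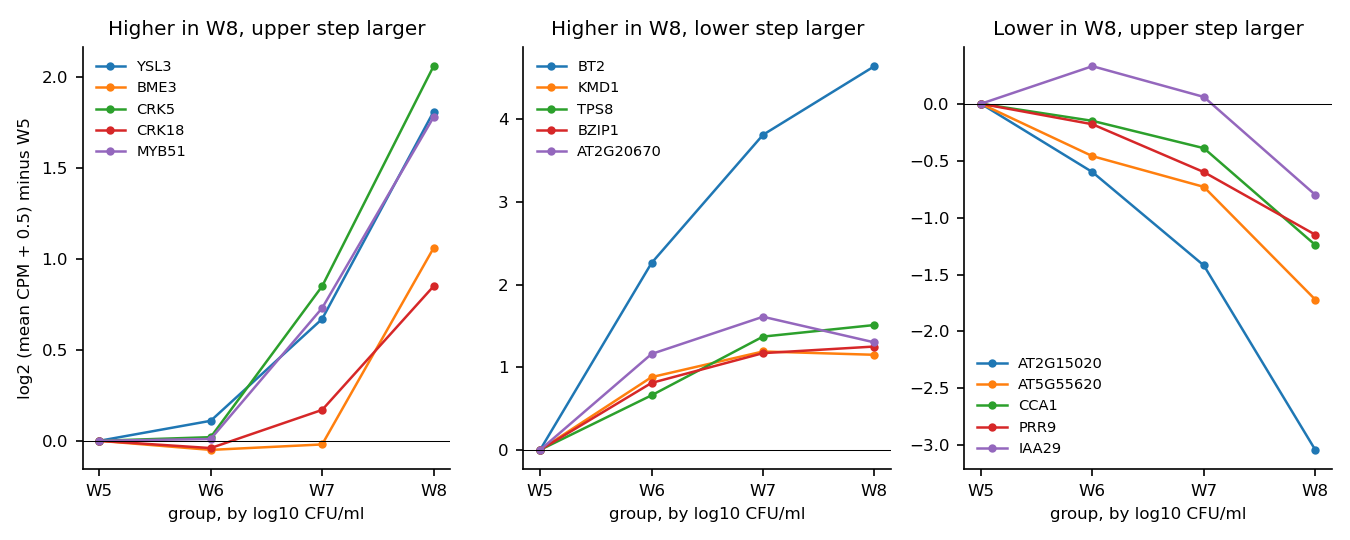
Log2 of the mean CPM + 0.5 relative to W5 (y axis) over the 4 densities (x axis) for genes called off the midpoint. YSL3 and BME3 rise mainly from W7 to W8, KMD1 and AT2G20670 mainly from W5 to W6, and CCA1 and PRR9 fall most from W7 to W8.

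**Figure D5:**
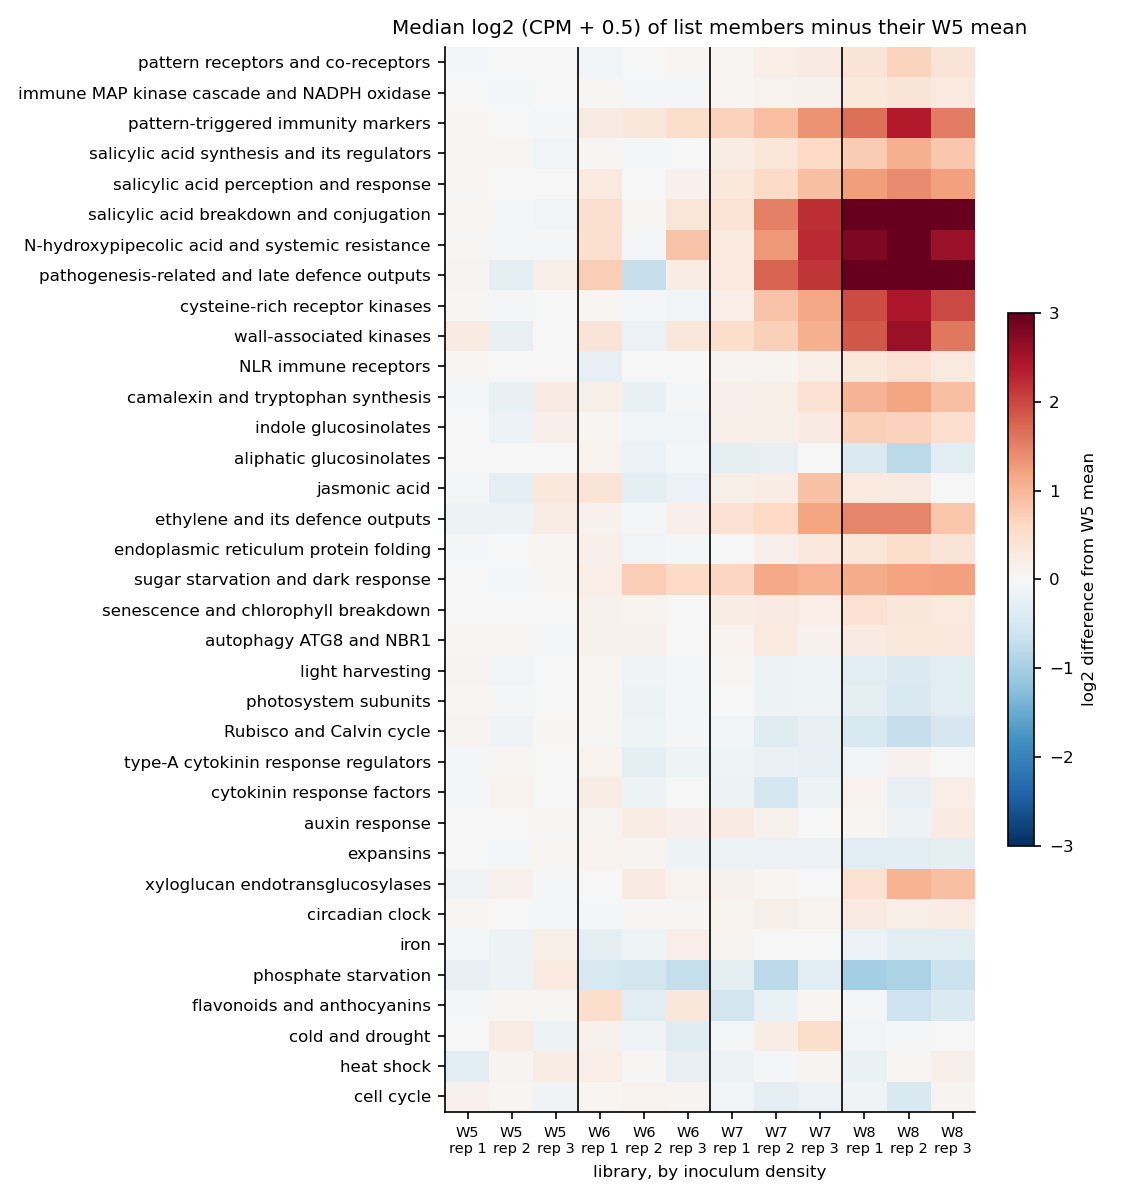
Median log2 (CPM + 0.5) of each list relative to the W5 mean (colour, limited to 3 in either direction) in the 12 inoculated libraries (columns, by density). In the salicylic acid, PR and receptor kinase lists every W8 column is above every W7 column, with replicate 2 the highest. In the ethylene list W7 replicate 3 is above W8 replicate 3. The sugar starvation list is already above W5 in every W6 library, least in replicate 1.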

How the data were processed

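RNA from the aboveground parts was selected for poly-A tails, prepared with a NEBNext Ultra kit and read on a NovaSeq 6000 as paired reads of 150 bases, per the labels' protocols. The authors deposited raw read counts per gene in 1 table of 32833 genes, with 0 columns left without a sample. The submitters' processing notes name cutadapt 1.9.1, featureCounts 1.22.2 and TAIR10. Which aligner, gene annotation release and strand option were used is not given in the sources used here, so overlapping genes are uncertain. RefSeq's TAIR10.1 annotation matched 32548 identifiers and gave symbols, promoters and the share of exon bases that belong to 1 gene only.

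Counts of the 12 inoculated libraries went into edgeR 4.0.16 under R 4.3.3: filterByExpr (minimum count 10, total 15), TMM scaling, and the quasi-likelihood test with robust=TRUE and 1 mean per group. The mock group was left out because 1 mock library stands apart in earlier results. Sizes over 2-fold were tested with glmTreat, Benjamini-Hochberg adjustment covered all 19285 genes tested, and SE is the log2 fold change over the square root of F. On counts simulated for this comparison, 167 of 200 genes changed by a log2 of 1 were called, as were 10 unchanged genes, among 19132 genes. Only those 200 genes were changed, evenly up and down, whereas 35.0% of genes were called in the data. The simulated rates therefore need not hold for the data. Replicates were separate pools of plants. Lists, members, motifs and tests were chosen with earlier results of these data known. Genes named are the 15 largest changes per direction, the 5 largest CPM changes per direction, up to 4 per list by p, 3 per direction off the midpoint, and a set of standard markers. Others were named after their values were seen. DESeq2 1.42.0, limma 3.58.1 and other settings served as alternatives.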

Additional observations from a re-analysis of the deposited data

How the results depend on the processing

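Of the 187 tested genes picked by the naming rules, 173 were called, 28 of them lost the call in some setting and 0 reversed. Genes named outside those rules, such as LHY, ATG8B, ATG8I, PPH, NYE1 and IAA2, are not in these counts. Each of these also lost its call when some library was left out. The calls between W8 and W5 ran from 5492 to 6214 when 1 library was left out, with 2969 to 3507 higher and 2438 to 2707 lower. Over 2-fold, the count ran from 362 to 524, with 341 to 499 higher and 15 to 25 lower. With all 15 libraries it was 358, of which 338 higher. For genes lower by over 2-fold, DESeq2 gave 17 and limma 15, against 29. Off the midpoint DESeq2 called 886 against 553, and leaving out 1 library gave 291 to 610. With upper-quartile scaling 3020 genes were higher and 4118 lower, and the median of all genes moved by -0.067. The causes were not tested. The deviations of same-numbered W8 and W5 libraries correlate at 0.02, -0.049 and -0.083, so no shared effect of the replicate number was seen. With 3 libraries per group these values cannot show whether same-numbered libraries were handled together. A fit with the replicate number as a block called 6747 genes. The depth limits genes with few counts in W5, where fold sizes are bounds or broad intervals.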
